A study of Mus musculus with 16 samples.

Results

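Inflamed mucosa of the proximal colon from sulindac-fed mice without epithelial Mcc, called lesions here, was set against matching normal mucosa of the same genotype on control feed. The comparison held 7 of the 16 arrays of the series, chosen by title, with 4 lesions and 3 controls. All samples came from male C57BL/6J mice, and RNA of the mucosal layer was hybridised to Affymetrix arrays, 1 array a sample. Both groups were knockouts (KO), labelled VILCre_MCCf. They carried a floxed Mcc allele (B6.Cg-Mcc<tm1Maija>/Ausb) and a Cre transgene under the villin promoter (B6.SJL-Tg(vil-cre)997Gum/J), which is active in intestinal epithelium, so leukocytes and stroma of these mice keep Mcc. Lesions came from mice given feed with 320 ppm sulindac for 10 weeks from 6 weeks of age, and controls from mice given control feed. The other 9 arrays, labelled WT_MCCf, were from siblings with floxed Mcc and no Cre, called wild type (WT), with 6 controls and 3 lesions. No array held normal mucosa of a sulindac-fed mouse, so an effect of the drug and the choice of inflamed tissue cannot be told apart.

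Sulindac is a non-steroidal anti-inflammatory drug that inhibits cyclooxygenases, the enzymes that begin prostaglandin synthesis. Prostaglandins support mucus secretion, blood flow and repair in the gut lining, and ulcers of the gut are a known side effect of the drug class. The colon lining is a single layer of epithelium in crypts, whose absorptive colonocytes oxidise butyrate, move salt and water and detoxify compounds, while goblet cells make mucus. Injury of the lining brings in neutrophils and monocytes, exposes matrix to proteases and sets off a repair programme in the epithelium. Mcc, named for its mutation in colorectal cancers, binds beta-catenin and polarity proteins.

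The deposited values are log2 expression, so a difference of 1 between group means is a 2-fold change, called the log2 change here, lesions minus controls. Array medians over all rows lay between 4.93 and 5.05 in the 7 arrays, and replicate arrays of a group correlated at r from 0.983 to 0.996. A level under 4.97, the median of all rows over these 7 arrays, was read as dim, and a change whose lower group is dim is given as a bound ("at least"). The descriptions number the samples in a lower and a higher series. The KO controls are all of the higher series and the lesions all of the lower one, so series and diet cannot be told apart within the 7 arrays. WT controls hold 3 samples of each series. Lesions were therefore also set against the 3 WT controls of the lower series, and against KO controls with the series as a covariate over all 16 arrays. Where either of these moved a count of called list members by over 1.5 times, and at least 1 of the counts was 3 or more, both follow the KO count in square brackets, in that order. The fit against WT controls of the lower series held only these controls and the lesions, while the main fit took its spread from all 16 arrays. Those controls also differ from the lesions in genotype. The series covariate rests on the WT controls, the only group with both series. A changed count can therefore not be put down to the controls alone. Families with near-identical copies (Gbp, Ly6, Reg3, Stfa, Cyp2c, Ces1, Ugt2b) may share probes. The labels do not say whether arrays are separate animals, so p-values measure the spread between these samples, which may be technical.

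Mcc measured 6.57, 6.71 and 6.43 in the controls and 6.39, 6.42, 6.47 and 6.45 in lesions 1 to 4, a log2 change of -0.13 (SE 0.09, adjusted p = 0.354). The 2 groups overlapped. The mucosal layer also holds cells that villin-Cre does not reach, and their part in these levels was not tested.

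Markers of colon epithelium were present in both groups. Epcam measured 11.96, 11.93 and 12.06 in the controls and 12.19, 12.09, 12.12 and 12.22 in lesions 1 to 4. This epithelial adhesion gene was not called, with a log2 change of 0.17, although each lesion lay above each control. The epithelial genes Cdh1 (0.33), Vil1 (0.32), Krt8 (0.23) and Krt20 (0.43) were slightly higher in lesions. The intestinal transcription factors Cdx1 (-0.98) and Cdx2 (-0.64), the lectin Lgals4 (-0.31), the mucin Muc2 (-0.47) and the chloride-bicarbonate exchanger Slc26a3 (-2.22) fell, and Car1 (-0.21) was not called. The leukocyte markers Ptprc (2.54), Itgb2 (2.32), Cd68 (2.17), Csf3r (2.87) and Cd3e (0.56) rose, while the B cell gene Cd79a (-0.12) was not called. Of the stromal markers, Col1a1 (1.01) and Pecam1 (0.44) rose and Acta2 (0.38) was not called. In bulk tissue, more or fewer cells of a type and more or less RNA per cell cannot be told apart, which holds for every result below. Among 18 small intestine and stomach genes 0 rose and 2 [3, 1] fell, among 11 adipocyte genes 0 rose and 1 fell, and among 18 genes of squamous epithelium 5 [2, 2] rose. The largest of those was Sprr1a (3.01), a cornified envelope gene also induced in injured gut, while the basal keratin Krt5 (0.18) and Trp63 (0.08) were not called.

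In all, 6464 of 30746 genes (21%) were called in limma at an adjusted p under 0.05, with 2755 (8.96%) higher and 3709 (12.1%) lower in lesions. Changes of at least 2-fold were called higher in 720 genes (2.34%) and lower in 437 (1.42%). Of these, 174 rises had dim controls and 48 falls had dim lesions, so their size is a bound. Lesions and controls did not overlap in 708 of the 720 rises and 419 of the 437 falls, and in 27.1% of all genes. Against the WT controls of the lower series 3865 genes (12.6%) were called, of which 3399 were among the 6464 and moved the same way. The 3865 held 1925 (6.26%) higher and 1940 (6.31%) lower. With the series as a covariate 2507 were called, of which 2345 were among the 6464 in the same direction. The 2507 held 1383 (4.5%) higher and 1124 (3.66%) lower. The higher and lower series of WT controls themselves differed in 61 genes (0.198%). The median log2 change over all genes was 0.006, the background for the list medians below.

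A change is termed measured here where the gene was called, its lower group was not dim and lesions and controls did not overlap. Gene models and clone names are left out. Large changes with a dim lower group, such as those of S100a8, Mmp13, Il1a and Cyp2c68, are outside this ranking and given as bounds below. The 10 largest measured rises were Il1b, Ptgs2, Cxcl9, Nos2, Steap4, Gbp2, Ly6c2, F3, Dcn and Reg3b, and the 10 largest falls were Mptx1, Tgm3, Sult1a1, Hao2, Otc, Insl5, Ccn3, Trpm6, Acsm3 and A4gnt. The rises hold an inflammatory cytokine, an inducible cyclooxygenase, a nitric oxide synthase, a starter of clotting, a matrix proteoglycan and an antimicrobial lectin. Il1b measured 5.18, 5.14 and 5.09 in the controls and 12.29, 12.71, 11.25 and 12.59 in lesions 1 to 4, a log2 change of 7.08 (SE 0.28, adjusted p = 4.94e-10). Cxcl9 measured 6.42, 5.36 and 5.10 in the controls and 11.002, 11.42, 10.47 and 11.17 in lesions 1 to 4, a log2 change of 5.39 (SE 0.32, adjusted p = 3.1e-08). In both genes lesion 3 was the lowest lesion and stood far above the controls. Steap4 measured 5.77, 5.70 and 5.78 in the controls and 9.59, 10.21, 10.40 and 11.05 in lesions 1 to 4, a log2 change of 4.56 (SE 0.24, adjusted p = 1.09e-08). Steap4 is a metalloreductase of iron and copper. Dcn measured 5.89, 5.76 and 6.31 in the controls and 10.06, 10.35, 10.29 and 9.68 in lesions 1 to 4, a log2 change of 4.11 (SE 0.22, adjusted p = 1.27e-08), and Dcn is decorin, a collagen-binding proteoglycan of fibroblasts. Reg3b measured 9.98, 7.61 and 8.35 in the controls and 13.40, 11.84, 12.95 and 12.71 in lesions 1 to 4, a log2 change of 4.08 (SE 1.01, adjusted p = 0.00845). Reg3b, a lectin that kills bacteria, had the most variable controls of the 10 rises, and its lowest lesion stood above its highest control. Ccn3 measured 11.28, 11.16 and 10.46 in the controls and 6.86, 9.66, 8.16 and 6.48 in lesions 1 to 4, a log2 change of -3.18 (SE 0.51, adjusted p = 0.000313). Ccn3 is a secreted matrix-associated protein, and lesion 2 lay within 1 log2 unit of the lowest control. A4gnt measured 8.11, 7.77 and 8.77 in the controls and 4.09, 6.95, 5.07 and 4.65 in lesions 1 to 4, a log2 change of -3.03 (SE 0.53, adjusted p = 0.000631). A4gnt adds the terminal alpha-linked N-acetylglucosamine of gland mucins, and all 4 lesions lay under all 3 controls. Tgm3 measured 10.66, 11.51 and 9.81 in the controls and 5.70, 7.15, 5.98 and 6.26 in lesions 1 to 4, a log2 change of -4.39 (SE 0.52, adjusted p = 2.41e-05). Tgm3 is a transglutaminase that cross-links proteins, and its lesions and controls were also apart.

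**Figure D1:**
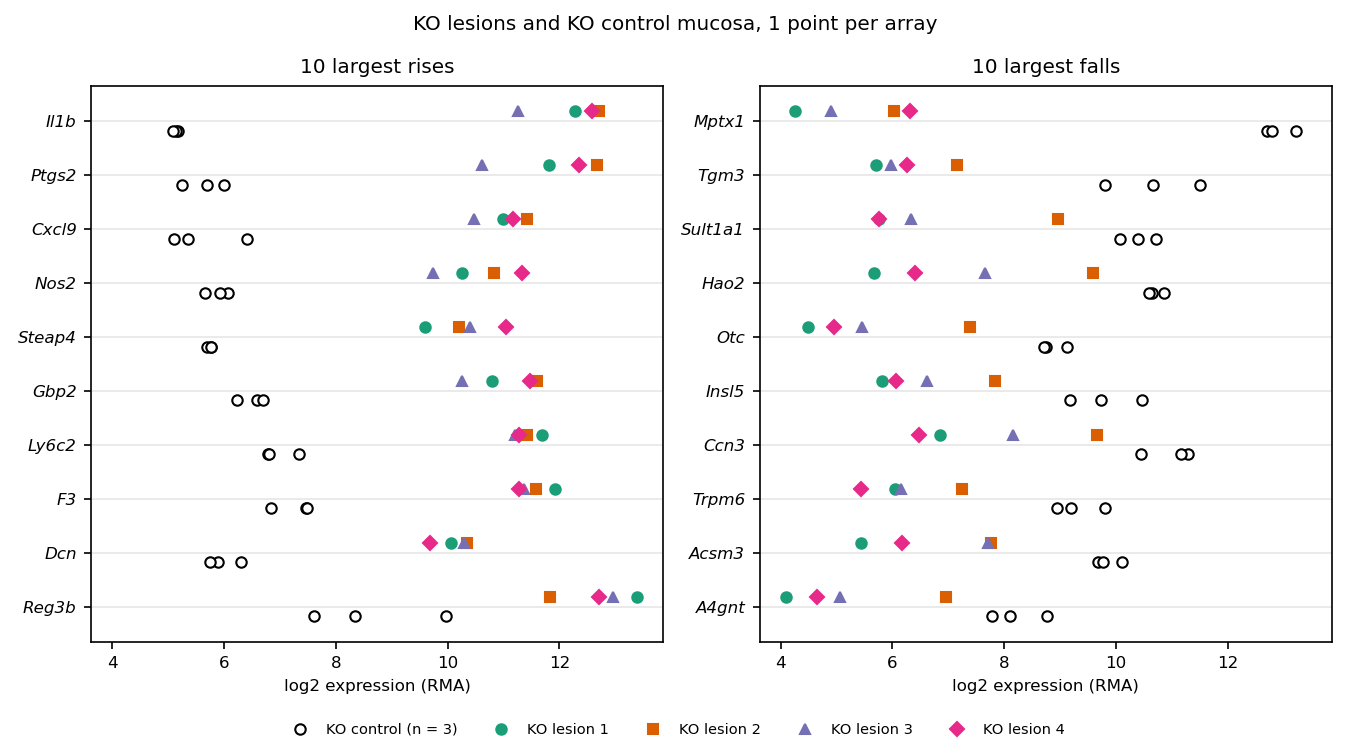
Log2 expression (x axis, RMA) of the 10 largest measured rises and the 10 largest measured falls, 1 point per array, with open circles for the 3 KO controls and filled symbols for the 4 KO lesions. Each gene's lesions and controls do not overlap, which the choice of genes required. Lesion 2 is the lesion nearest to the controls in every one of the 10 falls except Mptx1.

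Cytokines of the IL-1 family were among the largest rises. Of 9 ligands and antagonists on the array, 6 were called higher and 1 lower, and the list median was 2.81. Il1a measured 4.23, 3.94 and 3.93 in the controls and 11.13, 11.97, 8.85 and 11.92 in lesions 1 to 4, a log2 change of at least 6.94 (SE 0.52, adjusted p = 3.01e-07). Il1f9 measured 4.29, 4.06 and 4.20 in the controls and 7.99, 9.27, 7.10 and 8.81 in lesions 1 to 4, a log2 change of at least 4.11 (SE 0.37, adjusted p = 1.48e-06), and this gene encodes IL-36 gamma, an epithelial alarm cytokine. Il33 measured 4.53, 4.52 and 4.44 in the controls and 9.86, 8.53, 7.35 and 7.31 in lesions 1 to 4, a log2 change of at least 3.77 (SE 0.47, adjusted p = 3.5e-05), and the IL-33 it encodes is released from damaged cells. Il1rn measured 8.27, 7.94 and 7.09 in the controls and 10.90, 10.74, 10.37 and 10.31 in lesions 1 to 4, a log2 change of 2.81 (SE 0.31, adjusted p = 1.16e-05), and it encodes the natural antagonist of the IL-1 receptor. For these 4 genes every lesion exceeded every control. The falling member was Il18 (-0.78), a cytokine that colon epithelium makes at rest. Among 8 receptors and decoys 4 rose and 1 fell. The rises included Il1r2 (at least 3.37), a decoy for IL-1, and Il18rap (at least 2.05), a subunit of the IL-18 receptor. The signalling receptor Il1r1 (-0.39, adjusted p = 0.0976) was not called. Against WT controls of the lower series 5 ligands were higher.

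In the TNF superfamily, of 15 ligands 5 [2, 2] rose and 1 fell. Tnf measured 6.87, 6.19 and 6.48 in the controls and 9.81, 9.84, 8.12 and 9.89 in lesions 1 to 4, a log2 change of 2.90 (SE 0.37, adjusted p = 4.27e-05). Tnfsf13b (1.15), the B cell survival factor BAFF, rose and Tnfsf15 (-0.71), known as TL1A, fell. Of 26 receptors 12 rose and 1 [3, 1] fell, with Tnfrsf1b (2.05) and Tnfrsf1a (1.04), the receptors of TNF itself, the decoy receptor Tnfrsf11b (1.99) and Tnfrsf12a (1.24), the receptor of TWEAK, among the rises. Of 15 genes of the NF-kB pathway 7 rose and 1 fell. The rises include the inhibitors Nfkbia (1.18), Tnfaip3 (1.15) and Tnip3 (2.13) and the subunit Rel (1.68), while the subunits Rela (0.46), Relb (-0.05) and Nfkb2 (0.32) were not called.

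Most IL-6 family cytokines and receptors were higher in lesions than in KO controls. Among 8 cytokines 5 were higher, with Il6 (at least 3.17), Osm (1.89) and Il11 (0.92) among them, and among 8 receptors and STAT3 signalling genes 7 [6, 4] were higher. Osm measured 5.66, 5.64 and 5.76 in the controls and 7.35, 8.25, 6.60 and 8.10 in lesions 1 to 4, a log2 change of 1.89 (SE 0.30, adjusted p = 0.000264). Osmr measured 5.13, 5.16 and 5.13 in the controls and 8.94, 8.91, 8.58 and 9.31 in lesions 1 to 4, a log2 change of 3.79 (SE 0.16, adjusted p = 1.08e-09), so the oncostatin M ligand and its receptor subunit were both higher in all 4 lesions than in any control. STAT3 itself (0.75) and its feedback inhibitor Socs3 (0.91) rose, while the shared receptor subunit Il6st (0.32) was not called. Of 13 IL-17, IL-22 and IL-23 cytokines 5 [1, 1] were higher, including Il17a (at least 1.56), Il17f (at least 0.74) and Il23a (0.54). Il22 (0.47) was not called. In a list of 14 receptor chains of these cytokines and of the related IL-10 and IL-12 groups 4 rose and 3 [1, 1] fell, with Il10ra (1.28) and Il12rb2 (at least 0.93) among the rises, chains of the IL-10 and IL-12 receptors, and Il17re (-0.69), a subunit of the epithelial IL-17C receptor, the largest fall.

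Chemokines are small proteins that guide leukocytes, and most of the CXC group rose, while fewer of the CC group did. Of 15 CXC members 11 were higher and 1 lower, with a list median of 1.48. The neutrophil attractants Cxcl2 (at least 4.63), Cxcl1 (2.82), Cxcl3 (2.20) and Cxcl5 (at least 2.20) and the interferon-induced T cell attractants Cxcl9 (5.39), Cxcl10 (at least 2.91) and Cxcl11 (1.89) were among them. Cxcl2 measured 4.77, 4.57 and 4.75 in the controls and 9.03, 10.60, 7.23 and 10.46 in lesions 1 to 4, a log2 change of at least 4.63 (SE 0.55, adjusted p = 2.54e-05). Cxcl10 measured 4.37, 3.96 and 4.06 in the controls and 7.37, 7.72, 6.03 and 7.02 in lesions 1 to 4, a log2 change of at least 2.91 (SE 0.27, adjusted p = 2.23e-06). Lesion 3 was the lowest lesion for both genes and still exceeded all controls. Cxcl13 measured 7.88, 8.42 and 6.99 in the controls and 5.59, 7.45, 6.71 and 6.41 in lesions 1 to 4, a log2 change of -1.22 (SE 0.37, adjusted p = 0.0274). Cxcl13 draws B cells into follicles, and lesion 2 overlapped the controls. Of 17 CC chemokines 8 [2, 2] rose and 3 [1, 1] fell. The rises included Ccl3 (at least 2.96), Ccl5 (1.93) and Ccl2 (1.12), and the falls were Ccl28 (-1.09), Ccl6 (-1.04) and Ccl25 (-0.53), of which Ccl28 and Ccl25 are epithelial and draw plasma cells and lymphocytes to the mucosa. Among 20 receptors 8 [5, 5] rose and 0 fell, including Ccr1 (at least 3.12), Cxcr2 (3.09) and Ccr2 (at least 1.87), receptors of monocytes and neutrophils.

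Sequence just before the start of transcription is shown for 3 chemokine and cytokine genes because it holds a match to the NF-kB motif (GGGA, any 1 base, TTTCC). The genes were picked for that match after their values were seen. Each line gives the 110 bases before the RefSeq start (GRCm38.p6), in the direction of transcription, with the match in capitals. They lie at chr5:90903789-90903898, chr5:90891135-90891244 and chr5:30013004-30013113, all on the plus strand.
Cxcl2: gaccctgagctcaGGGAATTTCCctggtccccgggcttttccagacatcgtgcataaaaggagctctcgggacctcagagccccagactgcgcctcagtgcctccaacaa
Cxcl1: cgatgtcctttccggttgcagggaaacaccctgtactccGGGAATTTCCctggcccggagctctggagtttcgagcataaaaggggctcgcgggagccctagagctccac
Il6: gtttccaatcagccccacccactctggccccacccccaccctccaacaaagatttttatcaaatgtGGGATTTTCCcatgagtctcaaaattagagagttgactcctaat
The match begins 97, 71 and 44 bases before the start, in that order. Cxcl2 and Cxcl1 hold the same 10 letters. In windows of 300 bases around the start (250 before to 50 after), searched on both strands, the motif was found in 0.447% of 22143 windows of all genes tested, 1.26% of 556 windows of genes called higher by at least 2-fold and 0.459% of 436 windows of those called lower. Of 12 windows of CXC and CC chemokines called higher, 25% held it. A match describes the letters only.

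Prostanoid genes moved apart. Of 15 synthesis and breakdown genes 4 rose and 4 [4, 2] fell. Ptgs2 measured 6.01, 5.25 and 5.70 in the controls and 11.82, 12.68, 10.61 and 12.36 in lesions 1 to 4, a log2 change of 6.21 (SE 0.40, adjusted p = 6.65e-08), and this inducible cyclooxygenase is a target of sulindac. Transcripts of the prostaglandin E synthase gene Ptges (0.79) and of the secreted phospholipase gene Pla2g2a (1.04) also rose. The arrays measure RNA, and whether a transcript named in this report gives a working protein in these mice was not tested. Hpgd measured 9.74, 9.67 and 10.07 in the controls and 6.73, 8.95, 7.59 and 7.88 in lesions 1 to 4, a log2 change of -2.04 (SE 0.35, adjusted p = 0.000572). Hpgd encodes the dehydrogenase that inactivates prostaglandin E2, and with Cbr1 (-1.16), a carbonyl reductase of prostaglandins, it fell. Lesion 2 was the lesion nearest the controls. Of 11 receptors and transporters 2 rose and 1 fell, with the E receptor Ptger3 (-1.11) lower, Ptger2 (at least 0.34) higher and the efflux pump Abcc4 (1.22) higher, while Ptger4 (-0.23) was not called. In the leukotriene list of 13, 5 [4, 2] rose and 1 fell, with Alox5ap (2.05) and Alox12 (1.22) among the rises.

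Many sensors and effectors of innate immunity rose. Of 24 pattern recognition receptors 16 [13, 9] rose and 1 fell. The C-type lectins Clec7a (at least 5.52), Clec4e (at least 3.90) and Clec4d (at least 3.46), which bind fungal and mycobacterial glycolipids or glucans, were among the rises. Clec7a measured 4.70, 4.28 and 4.93 in the controls and 10.25, 10.72, 9.12 and 10.55 in lesions 1 to 4, a log2 change of at least 5.52 (SE 0.28, adjusted p = 1.05e-08). The epithelial Tlr5 (-0.27) was not called and Tlr1 fell (-1.01). In the inflammasome list of 19, 7 rose and 2 fell, with Nlrp3 (at least 2.72), Zbp1 (2.31), Ripk3 (1.83) and Mlkl (1.40) higher and Nlrp6 (-1.003) and Pycard (-0.99) lower. Of 15 NADPH oxidase and nitric oxide synthase genes 9 rose. These included the phagocyte subunit Cybb (2.71) and the epithelial pair Duox2 (1.87) and Duoxa2 (2.14), whereas Noxa1 fell (-1.02) and the colon oxidase Nox1 (0.23) was not called. Nos2 measured 5.66, 6.08 and 5.93 in the controls and 10.27, 10.84, 9.75 and 11.33 in lesions 1 to 4, a log2 change of 4.65 (SE 0.29, adjusted p = 5.31e-08). Among 19 Reg lectins and antimicrobial genes 4 rose, Reg3g (4.06), Lyz1 (2.40) and Pla2g2a (1.04) beside Reg3b, and 5 [4, 1] fell, including Ang4 (-2.16), Itln1 (-2.07 or lower) and Reg4 (-1.34). Lcn2 measured 4.98, 5.06 and 4.90 in the controls and 6.57, 7.26, 6.74 and 6.91 in lesions 1 to 4, a log2 change of 1.89 (SE 0.12, adjusted p = 4.48e-08). Lcn2 binds bacterial siderophores and, with Hp (2.05) and Saa3 (1.52), was among the 6 of 17 acute-phase genes that rose, while Saa1 (-0.22) was not called.

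Most interferon-inducible genes rose. All 12 interferon-inducible GTPases, which attack vacuoles that hold microbes, were higher, with a list median of 2.66 and a smallest change of 1.59 (Irgm1). Gbp2 measured 6.60, 6.70 and 6.23 in the controls and 10.79, 11.60, 10.26 and 11.47 in lesions 1 to 4, a log2 change of 4.52 (SE 0.30, adjusted p = 8.4e-08). Igtp measured 6.02, 6.13 and 5.66 in the controls and 9.65, 10.33, 9.20 and 10.54 in lesions 1 to 4, a log2 change of 3.995 (SE 0.27, adjusted p = 1.08e-07). Iigp1 measured 5.06, 4.49 and 4.51 in the controls and 8.62, 9.35, 8.005 and 9.39 in lesions 1 to 4, a log2 change of at least 4.15 (SE 0.32, adjusted p = 3.53e-07). Of 22 antiviral genes 17 rose and 0 fell, including Ifit2 (at least 3.34), Zbp1 (2.31) and Ifit1 (2.28), while Oas1a (0.12) and Mx2 (0.48) were not called. The mean change of the antiviral list was 1.56, 1.39, 0.63 and 1.23 in lesions 1 to 4, lowest in lesion 3. Of 10 MHC class II genes 7 rose, including H2-Ab1 (2.26), H2-DMb1 (2.22) and H2-Eb1 (2.05), and the master regulator Ciita (0.999) was among them. Of 19 class I genes 11 [7, 7] rose, including the peptide transporter Tap1 (1.71) and the immunoproteasome subunit Psmb8 (1.64). Ifng measured 3.85, 3.64 and 3.91 in the controls and 5.83, 7.94, 4.49 and 6.90 in lesions 1 to 4, a log2 change of at least 2.48 (SE 0.51, adjusted p = 0.0023), and it encodes interferon gamma. The tryptophan-degrading enzyme Ido1 (3.42) rose too.

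The interferon-stimulated response element was sought as GAAA, any 2 bases and GAAA, and 3 GTPase genes that hold it close to the start are shown, picked after their values were seen. Each line gives the 80 bases before the RefSeq start (GRCm38.p6) at chr3:142620583-142620662, chr3:142530256-142530335 and chr11:58199476-58199555, all plus strand, with the match in capitals.
Gbp2: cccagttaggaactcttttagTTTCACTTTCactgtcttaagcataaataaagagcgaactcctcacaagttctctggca
Gbp7: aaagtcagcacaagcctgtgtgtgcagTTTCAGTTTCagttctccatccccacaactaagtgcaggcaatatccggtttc
Igtp: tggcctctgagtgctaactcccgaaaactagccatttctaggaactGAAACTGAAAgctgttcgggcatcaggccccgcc
In Gbp2 and Gbp7 the capitals are the match read on the other strand, and in Igtp on the printed strand. The motif was in 3.32% of windows of all genes tested, 8.81% of those of genes called higher by at least 2-fold, 3.21% of those called lower, and 53.6% of windows of the GTPase and antiviral lists together. Gbp7 measured 6.65, 6.38 and 6.22 in the controls and 9.45, 10.40, 9.56 and 10.27 in lesions 1 to 4, a log2 change of 3.50 (SE 0.25, adjusted p = 1.54e-07).

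Most neutrophil and monocyte markers rose, and the list means of all 4 lesions stood above those of all 3 controls. Of 20 neutrophil markers 16 rose and 0 fell, with a list median of 2.53, and the mean level of the list was 4.68 to 4.79 in controls and 6.61 to 7.77 in lesions. S100a8 measured 3.25, 3.02 and 3.09 in the controls and 10.37, 11.26, 9.44 and 11.29 in lesions 1 to 4, a log2 change of at least 7.47 (SE 0.38, adjusted p = 1.05e-08). S100a9 measured 4.49, 4.74 and 4.72 in the controls and 11.11, 12.14, 10.16 and 12.15 in lesions 1 to 4, a log2 change of at least 6.74 (SE 0.41, adjusted p = 3.61e-08), and both encode calprotectin, an abundant neutrophil protein. Ly6g measured 8.30, 8.54 and 7.02 in the controls and 12.56, 11.36, 11.70 and 10.57 in lesions 1 to 4, a log2 change of 3.60 (SE 0.52, adjusted p = 0.000123). Unlike S100a8 and S100a9, Ly6g was not dim in the controls, and lesion 1 was its highest lesion and lesion 4 its lowest. Ly6 family copies may share probes, so other Ly6 genes may add to the Ly6g signal. The receptor for granulocyte colony-stimulating factor Csf3r (2.87) and Retnlg (at least 5.92) and Stfa2l1 (at least 4.84) also rose. The primary granule genes Mpo (-0.02), Elane (-0.01) and Prtn3 (0.07), which are transcribed in marrow precursors, and Camp (0.00) were not called. Of 21 monocyte and macrophage markers 17 rose and 1 fell, with list means of 5.47 to 5.54 in controls and 6.64 to 7.12 in lesions. Ly6c2 measured 7.34, 6.79 and 6.81 in the controls and 11.70, 11.43, 11.21 and 11.28 in lesions 1 to 4, a log2 change of 4.42 (SE 0.24, adjusted p = 1.27e-08), a marker of inflammatory monocytes. Ly6c2 may share probes with Ly6c1, which is among the wound-associated epithelial genes below. The monocyte and macrophage markers Lyz2 (2.87), Arg1 (2.91) and Fcgr3 (2.60) rose as well. The resident macrophage genes Cd163 (0.00) and Vsig4 (0.06) were not called and the efferocytosis receptor Mertk (-0.88) fell.

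The list medians of lymphoid markers were 0.37 for T, NK and innate lymphoid genes and -0.11 for B and plasma cell genes. Of 21 T, NK and innate lymphoid genes 12 [6, 5] rose, including Ifng (at least 2.48), Il7r (at least 1.52) and Il2ra (at least 1.21), while Cd8a (0.23) and Prf1 (0.12) were not called. Of 18 B and plasma cell genes 3 [2, 1] rose and 3 [0, 0] fell, and the arrays overlapped on the list mean. Pigr measured 12.65, 12.51 and 12.63 in the controls and 11.11, 12.41, 12.05 and 11.92 in lesions 1 to 4, a log2 change of -0.73 (SE 0.20, adjusted p = 0.0176). Pigr is the epithelial transporter that carries IgA to the lumen, so it is no marker of B cells. Prdm1 rose (2.26), and Jchain (-0.29) and Ms4a1 (-0.73) were not called. Of 17 mast cell and eosinophil genes 3 [1, 0] rose and Kit (-1.82), which colon epithelium near the stem cells also expresses, fell. Chemokine, innate and interferon genes above are also expressed in leukocytes, whose markers moved in the same arrays, and their part in those results was not tested.

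Matrix-degrading enzymes were among the genes with the lowest p. Of 19 matrix metalloproteinases 12 rose and 0 fell. Mmp13 measured 4.99, 4.67 and 4.91 in the controls and 12.28, 12.77, 12.09 and 11.77 in lesions 1 to 4, a log2 change of at least 7.37 (SE 0.20, adjusted p = 5.44e-12). Mmp10 measured 4.67, 4.67 and 4.71 in the controls and 10.96, 11.81, 10.90 and 10.88 in lesions 1 to 4, a log2 change of at least 6.45 (SE 0.19, adjusted p = 1.17e-11). Mmp3 measured 4.42, 4.50 and 4.49 in the controls and 7.57, 9.20, 6.93 and 8.19 in lesions 1 to 4, a log2 change of at least 3.50 (SE 0.38, adjusted p = 9.97e-06). Collagenase 3 (Mmp13) and stromelysins 2 (Mmp10) and 1 (Mmp3) cut collagen and other matrix proteins, and for each the lowest lesion lay more than 2 log2 units above the highest control. Mmp12 (at least 4.32), Mmp8 (at least 3.24) and Mmp9 (2.19), made by macrophages and neutrophils, rose too, while Mmp11 (0.15) and Mmp17 (0.13) were not called. Of 18 metalloproteinase inhibitors and related proteases 12 rose, with Adam8 (1.80), Timp3 (1.39) and Timp1 (0.76) among them.

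The 3 genes lie together on chromosome 9 and each holds the AP-1 motif TGANTCA close to the start, which is why they are shown. They too were picked after their values were seen. Each line gives the 80 bases before the RefSeq start (GRCm38.p6) at chr9:7272434-7272513, chr9:7502262-7502341 and chr9:7445742-7445821, plus strand, with the match in capitals.
Mmp13: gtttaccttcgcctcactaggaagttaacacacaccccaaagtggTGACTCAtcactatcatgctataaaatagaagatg
Mmp10: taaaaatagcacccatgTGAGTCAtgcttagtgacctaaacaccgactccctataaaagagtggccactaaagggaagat
Mmp3: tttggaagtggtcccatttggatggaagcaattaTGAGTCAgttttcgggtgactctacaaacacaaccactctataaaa
The match begins 35, 63 and 46 bases before the start. The motif reads alike on both strands apart from its middle base. It was in 7.39% of windows of all genes tested, 15.5% of windows of genes called higher by at least 2-fold and 6.65% of those called lower. Of 28 AP-1 and immediate early genes 16 rose and 0 fell, with Ier3 (2.49), Dusp1 (2.32) and Nr4a3 (1.53) and Fosl1 (0.86), Jun (0.76) and Atf3 (1.44) also higher. Fos itself (1.01, adjusted p = 0.0894) was not called.

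Many genes of structural matrix and its receptors rose too. Of 20 fibrillar collagens and modifying enzymes 15 [9, 9] rose and 1 fell. Col12a1 (2.74), Lox (at least 1.60) and Col6a3 (1.28) rose and Col8a1 (-1.73 or lower) fell. Of 21 basement membrane genes 12 rose, including Nid1 (2.28), Lamc1 (1.93) and Lamb1 (1.33). Of 20 matrix glycoproteins 11 rose. Fn1 measured 6.37, 6.29 and 6.97 in the controls and 9.87, 10.26, 10.15 and 9.45 in lesions 1 to 4, a log2 change of 3.39 (SE 0.19, adjusted p = 1.63e-08). Fn1 encodes fibronectin, which forms the provisional matrix of wounds, and every lesion exceeded every control. Of 22 integrins 17 rose and 0 fell, among them the leukocyte subunits Itgam (2.54) and Itgb2 (2.32), the subunit Itgav (2.36) and the epithelial Itgb6 (1.46) and Itga2 (1.39). Of 18 fibroblast markers 12 rose and 1 fell, and the rises were led after Dcn by Grem1 (3.30), Vim (2.65) and Pdpn (2.35). Grem1 measured 4.86, 5.54 and 5.49 in the controls and 8.26, 8.61, 8.80 and 8.71 in lesions 1 to 4, a log2 change of 3.30 (SE 0.26, adjusted p = 4.93e-07), and it encodes a BMP antagonist. Only 2 of 15 smooth muscle genes rose, Tpm2 (0.39) and Kcnmb1 (0.33), and of 21 endothelial genes 8 [4, 2] rose, including the adhesion molecules Icam1 (1.36) and Selp (at least 1.05) and the cadherin Cdh5 (1.29).

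Clotting and fibrinolysis genes rose in 15 of 20, with a list median of 1.04. F3 measured 7.46, 7.48 and 6.84 in the controls and 11.92, 11.58, 11.37 and 11.27 in lesions 1 to 4, a log2 change of 4.28 (SE 0.19, adjusted p = 1.89e-09), and tissue factor, its product, starts clotting. Plaur measured 7.31, 7.24 and 6.79 in the controls and 11.13, 10.66, 10.01 and 10.05 in lesions 1 to 4, a log2 change of 3.35 (SE 0.27, adjusted p = 4.93e-07). Plat measured 5.53, 5.69 and 5.72 in the controls and 9.21, 9.15, 8.66 and 8.62 in lesions 1 to 4, a log2 change of 3.26 (SE 0.13, adjusted p = 4.94e-10). Plaur is the receptor of urokinase and Plat is tissue plasminogen activator. Plau (2.64), F13a1 (2.79) and Serpinb2 (at least 2.11) rose too, so activators of plasmin, a clot-stabilising factor and an inhibitor of plasminogen activators were all higher. The falling member was Tfpi2 (-1.77), a protease inhibitor. Of 22 complement genes 12 rose and 1 fell, with C1s1 (2.88), Serping1 (1.86) and Cd55 (1.71) among the rises.

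Many growth factor and repair genes were higher in lesions. Of 21 fetal-like and wound-associated epithelial genes 17 rose and 0 fell, with a list median of 2.36. Anxa1 measured 9.75, 9.35 and 9.11 in the controls and 12.04, 11.71, 11.71 and 11.59 in lesions 1 to 4, a log2 change of 2.36 (SE 0.17, adjusted p = 1.79e-07). Ly6c1 measured 7.29, 7.13 and 6.81 in the controls and 11.10, 10.63, 10.57 and 10.49 in lesions 1 to 4, a log2 change of 3.62 (SE 0.19, adjusted p = 1.27e-08). The list also holds F3, Plaur, Ptgs2 and Il1rn, which leukocytes and stroma express as well, and Clu (0.81), a marker of revival stem cells, whereas Msln (0.06) was not called. Among 15 EGF receptor ligands and receptors 6 rose, with Nrg1 (3.11), Ereg (2.61), Hbegf (1.49) and Egfr (1.39), and 2 [4, 3] fell, Lrig1 (-1.05) and Egf (-0.56), the first an inhibitor of the receptors. Nrg1 measured 5.57, 5.17 and 5.52 in the controls and 8.89, 8.97, 8.34 and 7.93 in lesions 1 to 4, a log2 change of 3.11 (SE 0.25, adjusted p = 5.94e-07). Of 31 TGF-beta, activin and BMP genes 18 [11, 6] rose and 4 [3, 1] fell. Inhba (2.60), Fstl1 (1.76), Bmp4 (1.49) and Tgfb1 (1.45) were higher and Bmp3 (-1.60) lower. Of 27 growth factors of vessels and stroma 16 [10, 9] rose and 2 [3, 0] fell. The rises included Hgf (at least 2.55), Igfbp7 (2.50) and Fgf7 (at least 2.28). In the Wnt list 4 [2, 2] of 29 were higher, among them Wnt5a (1.05), and 2 lower. Of 18 stem cell and Wnt target genes 1 rose and 5 fell, including Lrig1 (-1.05), Lgr5 (-1.02) and Axin2 (-0.54). Lgr5 measured 6.08, 6.06 and 6.06 in the controls and 4.81, 5.17, 5.35 and 4.86 in lesions 1 to 4, a log2 change of -1.02 (SE 0.19, adjusted p = 0.00112), and it marks crypt base stem cells.

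**Figure D2:**
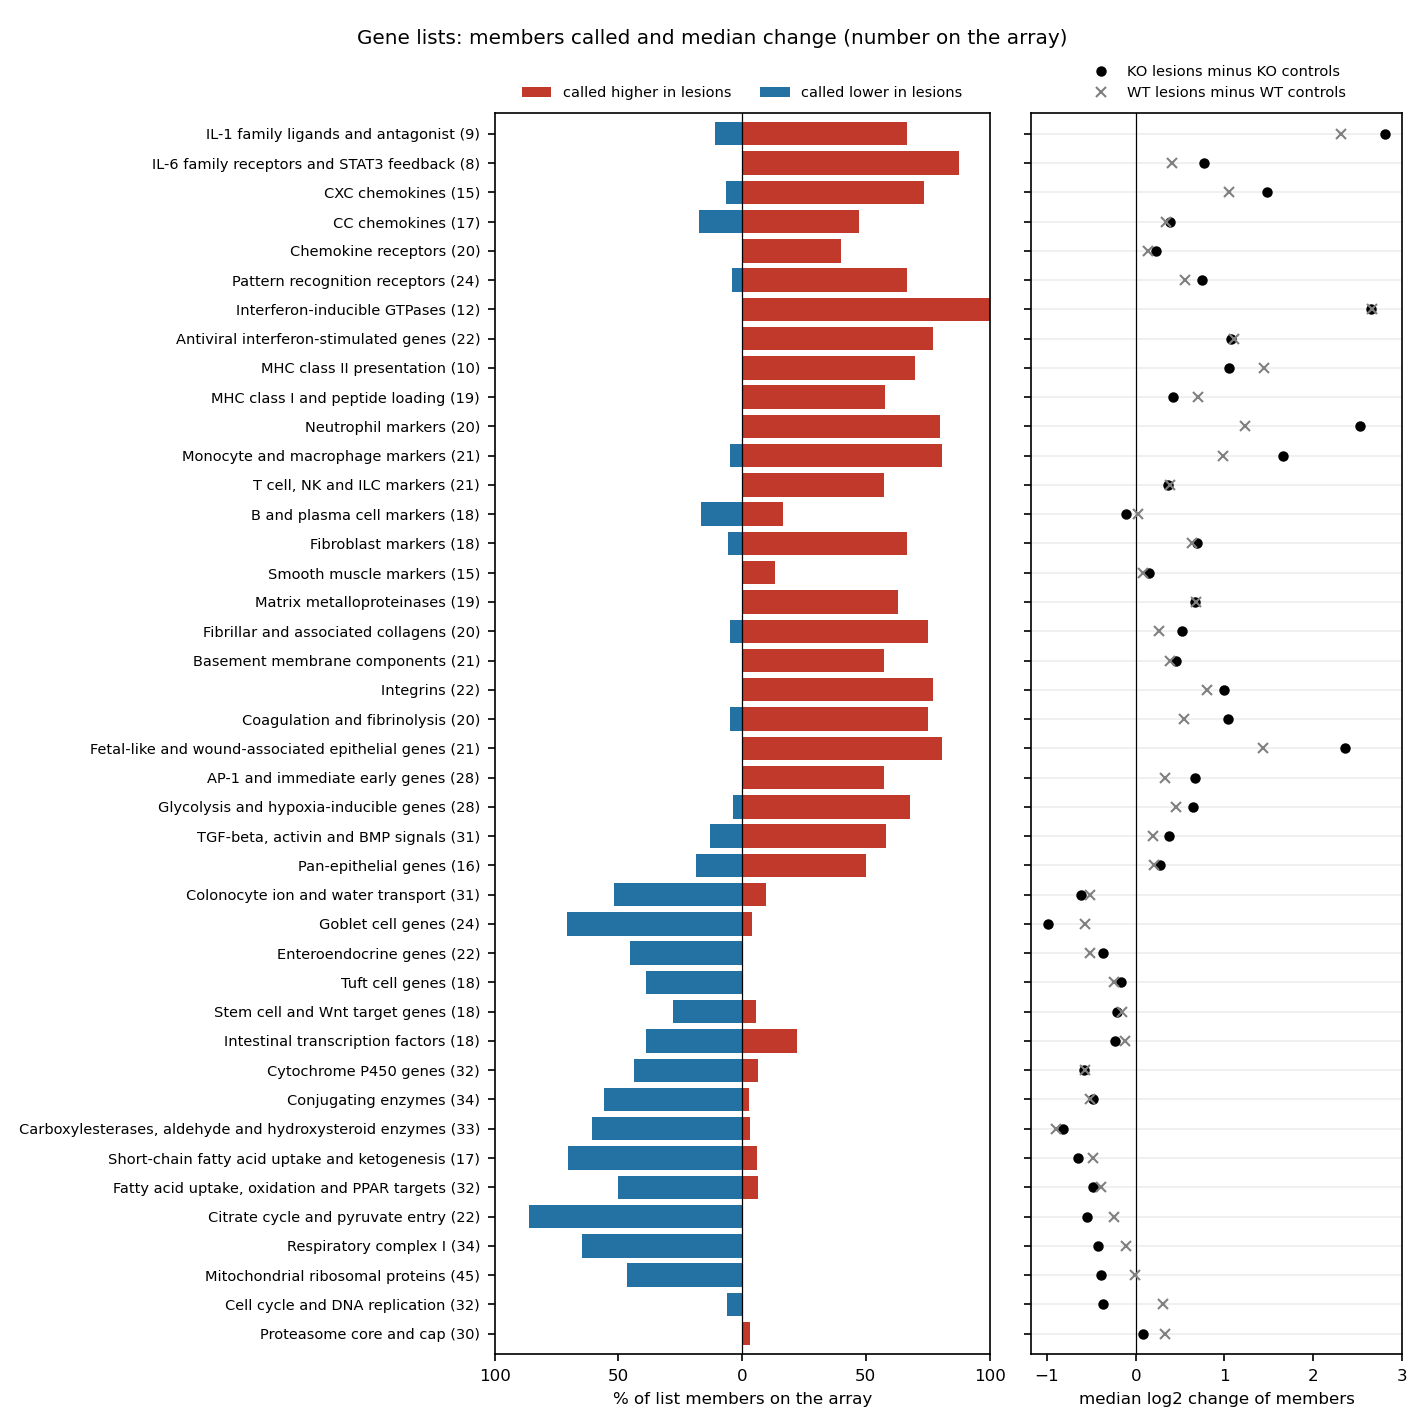
Left, percent of the members on the array that were called higher (red, to the right) or lower (blue, to the left) in KO lesions, for 42 of the 91 gene lists, with the number of members in brackets. Right, median log2 change of the members in KO (dots) and in WT (crosses). Immune, matrix and repair lists lie to the right and epithelial function and metabolism lists to the left, from 12 of 12 interferon-inducible GTPases higher to 19 of 22 citrate cycle genes lower.

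Glycolysis and hypoxia-inducible genes rose in 19 of 28 and fell in 1. Adm measured 7.40, 7.36 and 7.13 in the controls and 11.49, 11.01, 10.24 and 10.80 in lesions 1 to 4, a log2 change of 3.59 (SE 0.26, adjusted p = 1.81e-07). Pfkfb3 (2.50), Egln3 (2.36), Bnip3 (2.07) and Hk2 (2.05) and Hif1a (1.62) were also higher, while Ldha (0.17) and Aldoa (0.14) were not called. Of 21 antioxidant genes 10 rose, with Slc7a11 (3.08) and Hmox1 (2.08), and 3 [1, 0] fell, among them Sod1 (-0.49), while Nqo1 (-0.45) was not called. Slc7a11 measured 5.69, 5.73 and 5.30 in the controls and 8.81, 8.82, 8.14 and 8.87 in lesions 1 to 4, a log2 change of 3.08 (SE 0.17, adjusted p = 1.27e-08), and it encodes the cystine importer. Of 21 genes of arginine, polyamine and tryptophan metabolism 10 [7, 6] rose and 4 fell. Enzymes that use arginine, Arg1 (2.91) and Arg2 (1.61) and Nos2, were higher. Otc measured 9.12, 8.74 and 8.71 in the controls and 4.48, 7.39, 5.45 and 4.96 in lesions 1 to 4, a log2 change of -3.29 (SE 0.49, adjusted p = 0.00016), the enzyme that makes citrulline, and Aoc1 (-1.61) and Odc1 (-0.78), which break down diamines and make polyamines, were lower.

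Many genes of the mature epithelium fell. Of 31 ion and water transport genes 16 [15, 10] fell and 3 rose. Trpm6 measured 9.20, 9.81 and 8.94 in the controls and 6.05, 7.25, 6.16 and 5.43 in lesions 1 to 4, a log2 change of -3.09 (SE 0.36, adjusted p = 2.06e-05), and this magnesium channel is needed for colonic magnesium uptake. Slc26a3 measured 11.65, 11.78 and 11.44 in the controls and 8.39, 10.65, 9.16 and 9.40 in lesions 1 to 4, a log2 change of -2.22 (SE 0.39, adjusted p = 0.0007). Cftr (-1.47), Slc9a3 (-1.29) and Aqp1 (-1.31) fell too, and the subunits of the sodium channel ENaC, Scnn1a (-0.07), Scnn1b (-0.27) and Scnn1g (0.15), were not called. Aqp8 measured 10.36, 10.61 and 10.11 in the controls and 9.40, 10.16, 8.44 and 10.04 in lesions 1 to 4, with a log2 change of -0.85 that missed the call (adjusted p = 0.0643). Aqp8 is the main water channel of surface colonocytes, and lesion 2 overlapped the controls. Of 17 genes for butyrate uptake and use 12 [9, 7] fell and 1 rose. Acsm3 measured 10.10, 9.69 and 9.77 in the controls and 5.44, 7.77, 7.72 and 6.17 in lesions 1 to 4, a log2 change of -3.08 (SE 0.44, adjusted p = 0.000122). Its enzyme activates fatty acids such as butyrate. The transporters Slc16a1 (-0.65) and Slc5a8 (-0.56) were lower, and Hcar2 (2.06), a butyrate and niacin receptor that neutrophils also carry, was higher. Of 21 brush border genes 4 [1, 1] rose and 4 fell, with Scin (-2.37), Mep1a (-1.38) and Dpp4 (-1.36) the most, while Anpep (0.80) and Eps8 (0.70) were higher.

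Most goblet cell genes fell, as did some enteroendocrine and tuft cell genes. Of 24 goblet cell genes 17 [16, 9] fell and 1 rose, with a list median of -0.99 and list mean changes of -1.20, -0.52, -0.92 and -1.22 in lesions 1 to 4. Atoh1 measured 10.34, 10.28 and 10.07 in the controls and 7.15, 9.20, 7.91 and 7.88 in lesions 1 to 4, a log2 change of -2.20 (SE 0.30, adjusted p = 9.03e-05), and it is the factor that commits cells to the secretory fate. B3gnt6 (-1.91), Ern2 (-1.65), Spdef (-1.20) and Fcgbp (-1.35) fell, and Muc2 and Zg16 (-0.57) fell less. Trefoil factor Tff3 (-0.40) and Retnlb (-0.37) were not called. Mptx1 measured 12.70, 12.78 and 13.23 in the controls and 4.26, 6.03, 4.89 and 6.31 in lesions 1 to 4, a log2 change of -7.53 (SE 0.92, adjusted p = 3.15e-05), and this pentraxin is an intestinal epithelial secretory protein. Of 22 enteroendocrine genes 10 [9, 5] fell and 0 rose. Insl5 measured 10.47, 9.74 and 9.18 in the controls and 5.81, 7.83, 6.61 and 6.07 in lesions 1 to 4, a log2 change of -3.22 (SE 0.48, adjusted p = 0.000156). Gcg (-2.05), Pyy (-1.73) and Chga (-1.11) fell too, hormones of colonic L cells and a granule protein, while Cck (-0.26) and Neurog3 (-0.33) were not called. Of 18 tuft cell genes 7 [3, 2] fell, including Rgs13 (-1.96), Gnat3 (-1.11 or lower) and Dclk1 (-0.81).

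Junction genes went both ways. Of 22 tight junction genes 5 [3, 3] rose and 7 fell. Cldn4 measured 9.07, 8.83 and 8.22 in the controls and 11.84, 11.13, 11.12 and 11.0002 in lesions 1 to 4, a log2 change of 2.57 (SE 0.23, adjusted p = 1.71e-06). Cldn8 measured 7.58, 7.48 and 7.21 in the controls and 5.39, 5.62, 5.86 and 5.97 in lesions 1 to 4, a log2 change of -1.71 (SE 0.19, adjusted p = 1.01e-05), and Cldn15 (-1.95) and Ocln (-0.30) were also lower. Cldn4 and Cldn8 are sealing claudins of the colon, so these 2 members moved in opposite directions. Of 12 desmosome genes 7 [2, 1] rose, by 0.77 (Pkp2) at most. Among 17 catenin and polarity partners of Mcc 5 [1, 0] rose and 3 [2, 1] fell, with Pard6b (0.69) and Mpp5 (0.57) higher, Axin2 (-0.54), Pard3 (-0.37) and Scrib (-0.28) lower and Apc (0.02) not called.

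Several transcription factors that maintain intestinal identity and metabolism fell. Of 18 intestinal factors 7 fell and 4 [3, 1] rose. Isx measured 9.02, 8.83 and 8.92 in the controls and 6.86, 7.87, 6.46 and 6.21 in lesions 1 to 4, a log2 change of -2.08 (SE 0.37, adjusted p = 0.000732). Hnf4g measured 8.55, 8.38 and 8.56 in the controls and 5.63, 7.25, 7.55 and 6.56 in lesions 1 to 4, a log2 change of -1.75 (SE 0.31, adjusted p = 0.000775). Its paralogue Hnf4a (-0.22, adjusted p = 0.193) was not called. Ppargc1a measured 7.77, 8.61 and 8.10 in the controls and 5.41, 7.11, 6.45 and 6.25 in lesions 1 to 4, a log2 change of -1.85 (SE 0.34, adjusted p = 0.000909), and this coactivator drives mitochondrial genes. Of 18 nuclear receptors 7 fell and 2 rose. Nr5a2 measured 9.02, 9.21 and 9.15 in the controls and 5.96, 7.93, 7.37 and 6.63 in lesions 1 to 4, a log2 change of -2.15 (SE 0.31, adjusted p = 0.000124), and this receptor controls intestinal steroid synthesis. The vitamin D receptor Vdr (-1.14), the thyroid hormone receptor Thrb (-1.35) and Ppara (-0.76) fell, while the xenobiotic receptor Nr1i2 (-0.37) was not called.

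Detoxifying enzymes formed a large group of falls. Of 32 cytochrome P450 genes 14 [7, 2] fell and 2 [4, 2] rose. Cyp2c68 measured 8.78, 8.45 and 8.01 in the controls and 3.95, 6.78, 4.28 and 4.02 in lesions 1 to 4, a log2 change of -3.65 or lower (SE 0.50, adjusted p = 8.6e-05). Cyp2c69 measured 7.53, 7.35 and 7.06 in the controls and 4.01, 5.87, 4.34 and 4.22 in lesions 1 to 4, a log2 change of -2.70 or lower (SE 0.32, adjusted p = 2.61e-05). Cyp2c40 measured 7.58, 7.34 and 7.07 in the controls and 4.69, 6.06, 4.40 and 4.61 in lesions 1 to 4, a log2 change of -2.39 or lower (SE 0.29, adjusted p = 2.83e-05), though this gene is not among the 32. Cyp2c genes oxidise drugs and arachidonic acid, and near-identical copies could share probes. In all 3, lesion 2 stood nearest to the controls. Of 34 conjugating enzymes 19 [16, 11] fell and 1 rose. Sult1a1 measured 10.40, 10.06 and 10.71 in the controls and 5.76, 8.97, 6.34 and 5.77 in lesions 1 to 4, a log2 change of -3.68 (SE 0.56, adjusted p = 0.000216), a phenol sulfotransferase. Sult1c2 (-2.93), Ugt2b5 (-2.85 or lower) and Gstm3 (-2.06) fell too, while Gstp1 (-0.20) was not called. Of 33 carboxylesterases and aldehyde and hydroxysteroid enzymes 20 fell, with a list median of -0.82. Hao2 measured 10.87, 10.65 and 10.58 in the controls and 5.66, 9.59, 7.66 and 6.41 in lesions 1 to 4, a log2 change of -3.37 (SE 0.61, adjusted p = 0.00087), a peroxisomal oxidase of hydroxy acids. Adh1 (-2.61), Aldh1a1 (-2.32) and Ces1g (-1.94) fell and Aldh1a3 (2.81), another retinaldehyde dehydrogenase, rose.

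The HNF4 motif CAAAGTNCA lies close to the start in the 3 Cyp2c genes named above, which were picked for it after their values were seen. Each line gives the 100 bases before the RefSeq start (GRCm38.p6) at chr19:39741102-39741201, chr19:39886770-39886869 and chr19:39812815-39812914, all on the minus strand and printed in the direction of transcription, with the match in capitals.
Cyp2c68: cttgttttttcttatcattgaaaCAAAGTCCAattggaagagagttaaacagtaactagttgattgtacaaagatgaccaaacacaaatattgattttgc
Cyp2c69: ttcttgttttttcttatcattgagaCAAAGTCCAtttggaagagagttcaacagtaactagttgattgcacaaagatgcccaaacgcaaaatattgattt
Cyp2c40: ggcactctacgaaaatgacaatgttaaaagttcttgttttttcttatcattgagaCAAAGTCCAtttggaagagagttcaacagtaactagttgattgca
The match begins 77, 75 and 45 bases before the start and has the same 9 letters in the 3 genes, which lie together on chromosome 19. The motif was in 1.37% of windows of all genes tested, 2.98% of windows of genes called lower by at least 2-fold and 2.52% of those called higher, so its share was above that of all genes in both directions. The CDX motif TTTATNG was in 9.75%, 10.1% and 15.6%, in the same order.

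Many genes of oxidative metabolism fell in KO lesions against KO controls. For the respiratory chain and mitochondrial ribosome lists, counts and medians were smaller in size in both other comparisons. Of 32 fatty acid oxidation genes 16 fell and 2 rose, and the falls included Hadh (-1.21) and Acaa2 (-1.10). The median of this list was -0.486, against -0.469 with WT controls of the lower series and -0.445 with the series as a covariate. Of 22 citrate cycle genes 19 [10, 5] fell and 0 rose. Idh3a measured 9.81, 9.73 and 9.42 in the controls and 8.45, 8.82, 9.30 and 8.69 in lesions 1 to 4, a log2 change of -0.84 (SE 0.18, adjusted p = 0.003). Ndufs8 measured 10.26, 9.94 and 9.93 in the controls and 9.27, 9.41, 9.63 and 9.06 in lesions 1 to 4, a log2 change of -0.70 (SE 0.19, adjusted p = 0.0164), a subunit of complex I. Of 34 complex I genes 22 fell against KO controls, 7 against WT controls of the lower series and 0 with the series as a covariate. In the same order the counts were 13, 4 and 2 of 14 for complexes II and III. They were 11, 6 and 0 of 19 for complex IV, and 7, 2 and 0 of 15 for ATP synthase. For mitochondrial ribosomal proteins they were 21, 0 and 0 of 45. WT controls of the higher series were themselves above those of the lower series, by a list median of 0.26 for complex I and 0.28 for mitochondrial ribosomal proteins, so the falls of these lists and the series cannot be told apart. The NRF1 motif (GCGCA, any 1 base, GCGC) was in 20.5% of windows of the respiratory chain and mitochondrial ribosome lists, 6.11% of windows of all genes tested and 2.75% of those of genes called lower by at least 2-fold.

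**Figure D3:**
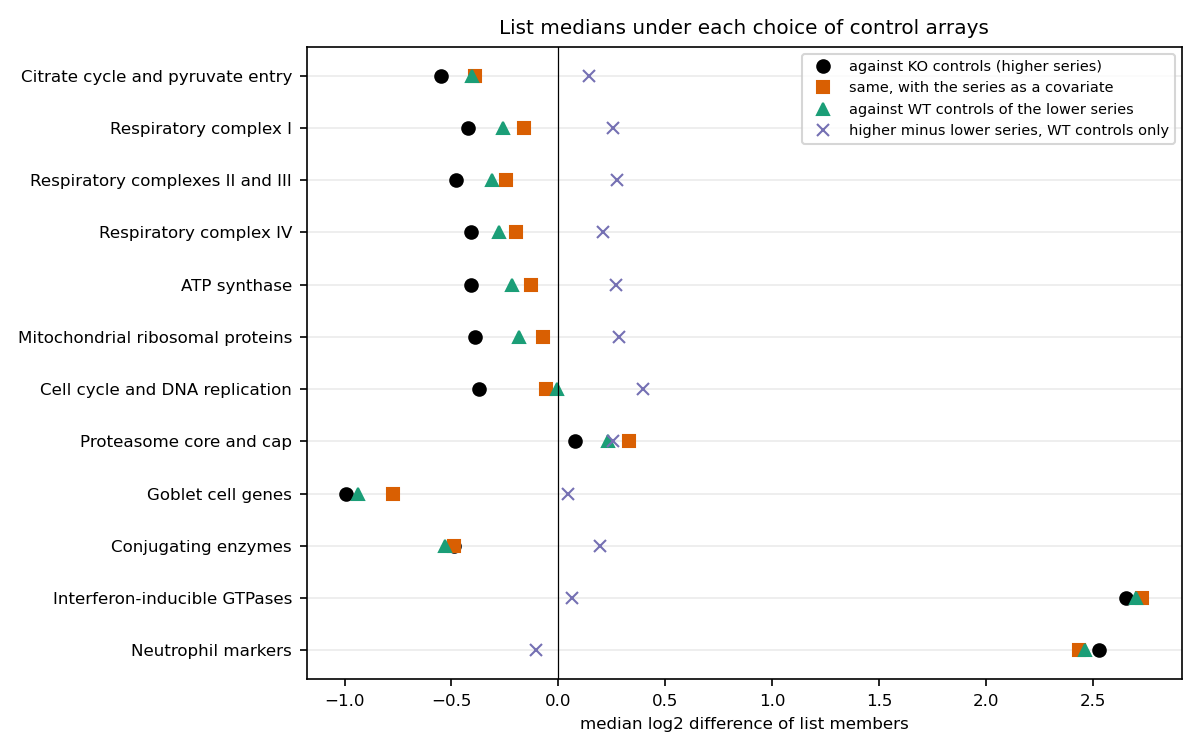
Median log2 difference of the members of 12 gene lists (x axis) for KO lesions against KO controls (circles), the same with the number series as a covariate (squares) and against WT controls of the lower series (triangles), with the difference between the 2 series of WT controls alone (crosses). The interferon and neutrophil medians lie far to the right under each choice of controls, while the cell cycle median moves from -0.37 to -0.01 against WT controls of the lower series.

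Counts of called list members differed between the comparisons to different degrees, and the comparisons also differ in precision. The 7 KO arrays fitted alone gave 4694 called genes, against 6464 in the fit of 16 arrays. The fit with WT controls of the lower series, also without the other arrays, gave 3865. Over the 91 lists, 31 of 63 counts of members called higher and 31 of 41 counts of members called lower, among those that reached 3 in any of the 3 comparisons, moved by over 1.5 times. Of those that did not, 4 lists are given here, as the members called against KO controls, against WT controls of the lower series, and against KO controls with the series as a covariate. Members called higher were 12, 12 and 12 for interferon-inducible GTPases, 16, 13 and 12 for neutrophil markers, 12, 9 and 8 for matrix metalloproteinases and 11, 10 and 9 for CXC chemokines.

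Proliferation and protein turnover genes showed few calls. Of 32 cell cycle genes 0 rose and 2 fell, Tyms (-0.85) and Cdk4 (-0.74), with a list median of -0.37 (-0.01 against WT controls of the lower series). The list mean was 0.13, 0.19 and -0.32 in controls 1 to 3 relative to their own mean, and -0.82, -0.56, 0.20 and -0.39 in lesions 1 to 4. Lesion 3 alone was above the control mean, and without it 12 genes fell. Mki67 measured 10.42, 11.001 and 10.30 in the controls and 9.58, 10.16, 11.28 and 10.33 in lesions 1 to 4, and the change of -0.23 was not called. Of 30 proteasome genes 1 [4, 2] rose and 0 fell. Of 21 genes of the unfolded protein response 2 rose and 5 [2, 1] fell. The largest fall there was Ern2, the goblet cell form of the stress sensor, while Hspa5 (0.05) and Ddit3 (-0.29) were not called. Of 20 cholesterol and fatty acid synthesis genes 2 [11, 7] rose and 1 fell.

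Over all genes the median SD was 0.133 in the 4 KO lesions and 0.11 in the 3 KO controls. Over the 720 genes called higher by at least 2-fold, the median SD was 0.396 in KO lesions and 0.154 in KO controls, and over the 437 called lower it was 0.486 and 0.218, which are genes chosen for their change. Lesion 3 was the lowest of the 4 in 421 of the 720 rises, and the median change over these genes was 1.72, 1.69, 1.31 and 1.70 in lesions 1 to 4. Lesion 2 was nearest the controls in 320 of the 437 falls and lesion 1 farthest in 289, with median changes of -1.81, -0.87, -1.22 and -1.46. The order of the lesions was therefore not the same for rises and falls. The neutrophil list had mean changes of 2.48, 3.03, 1.87 and 2.98, and the list of carboxylesterases and related enzymes -1.28, -0.38, -1.07 and -1.16. The genes with the largest SD over the 4 lesions were 8 immunoglobulin variable genes, among them Igkv5-48, Igkv4-57, Ighv1-53, Igkv4-59, Igkv4-62 and Igkv4-63. Igkv5-48 measured 5.22, 5.55 and 5.03 in the controls and 2.97, 6.69, 6.83 and 7.91 in lesions 1 to 4, and lesion 1 was the lowest in each of the 8. Near-identical copies of these genes could share probes.

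**Figure D4:**
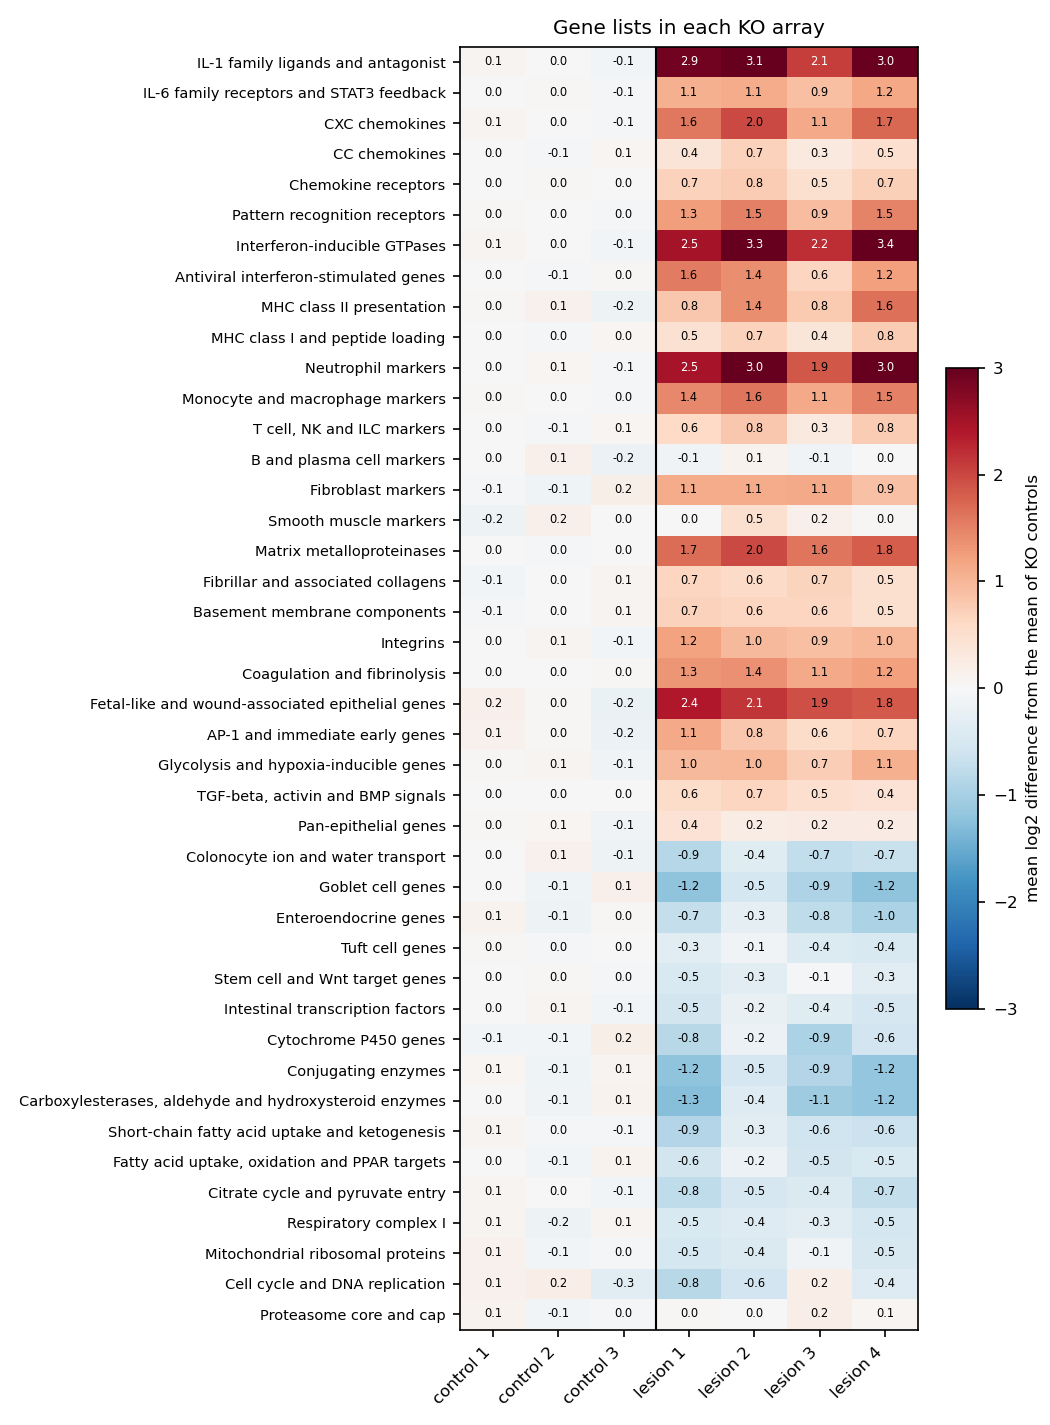
Mean log2 difference of each list's members from the mean of the 3 KO controls, for 42 gene lists (rows) in the 7 KO arrays (columns), red for higher and blue for lower. Controls stay within 0.32 of their own mean, lesion 3 is the palest lesion in the interferon and neutrophil rows, and lesion 2 is the palest in the goblet, conjugating and carboxylesterase rows.

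The same contrast was run in WT mice, to ask where the KO response differs. In the WT comparison 4708 genes (15.3%) were called, with more controls and fewer lesions than in KO. Genes called in both numbered 1612 higher and 1758 lower, and 4 were called in opposite directions (Gm12251, Gm12870, Ifnk and Mboat2). The difference between the 2 responses was called for 1 gene (0.00325%), and 3424 had an unadjusted p under 0.05. Plat measured 5.53, 5.69 and 5.72 in the controls and 9.21, 9.15, 8.66 and 8.62 in lesions 1 to 4. In WT it was 5.89, 5.67, 5.75, 5.61, 5.68 and 5.65 in controls and 6.87, 6.86 and 6.999 in lesions. The log2 change was 3.26 in KO and 1.20 in WT, a difference of 2.06 (SE 0.17, adjusted p = 0.000135). All 4 KO lesions exceeded all 3 WT lesions, and controls of both genotypes overlapped. The genes with the next lowest p, Tmem95, Siglece, Tnfrsf23, Alox12 and Svil and 1 immunoglobulin kappa variable gene, shared an adjusted p of 0.256 and did not pass. Siglece, a receptor of neutrophils and macrophages, had a change of at least 1.12 in KO and 0.29 in WT.

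The number of called differences depended on lesion 3. Without it 510 genes (1.66%) differed between the responses, 275 with the KO change higher and 235 with it lower, and lesion 3 was the lowest lesion in 264 of those 275. A KO mean without a low lesion is higher, so this share follows largely from how the 275 were chosen. The list counts and the adjusted p-values without lesion 3 below carry the same limit and are no test of a genotype difference. Leaving out any other array of the series in turn gave 1 to 5 genes. With the higher change in KO, the 510 held 10 of 20 neutrophil markers, 8 of 24 pattern recognition receptors, 6 of 28 glycolysis and hypoxia genes and 6 of 28 AP-1 and immediate early genes. They also held 5 of 32 cell cycle genes with the lower change in KO, a list in which lesion 3 alone lay above the control mean. Cxcr2 measured 5.38, 5.45 and 5.30 in the controls and 8.26, 9.42, 7.34 and 8.84 in lesions 1 to 4. In WT, Cxcr2 was 5.71, 5.68, 5.59, 5.56, 5.65 and 5.40 in controls and 6.99, 6.88 and 6.50 in lesions, and the difference of the changes was 1.90 (adjusted p = 0.324) with lesion 3 and 2.28 (adjusted p = 0.00118) without it. Trem1 measured 4.38, 4.53 and 4.15 in the controls and 7.69, 8.43, 6.60 and 8.57 in lesions 1 to 4. In WT, Trem1 was 4.41, 4.53, 4.45, 4.41, 4.21 and 4.53 in controls and 6.37, 6.05 and 5.93 in lesions, and the difference was 1.78 (adjusted p = 0.384) with lesion 3 and 2.18 (adjusted p = 0.000738) without it. Cxcr2 and Trem1 are receptors of neutrophils and monocytes. The neutrophil list median was 2.53 in KO and 1.24 in WT, and the interferon GTPase medians were 2.66 and 2.67. The differences between the responses above and the next values all rest on KO controls of the higher series, while WT controls hold both series. In WT controls the higher series exceeded the lower by a list median of 0.40 for cell cycle and 0.26 for proteasome genes. The cell cycle medians were -0.37 and 0.31, and proteasome genes were called higher in 1 of 30 in KO and 14 of 30 in WT. Against WT controls of the lower series the KO medians were -0.01 and 0.23, with 4 proteasome genes higher. Differences between list medians were not tested.

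**Figure D5:**
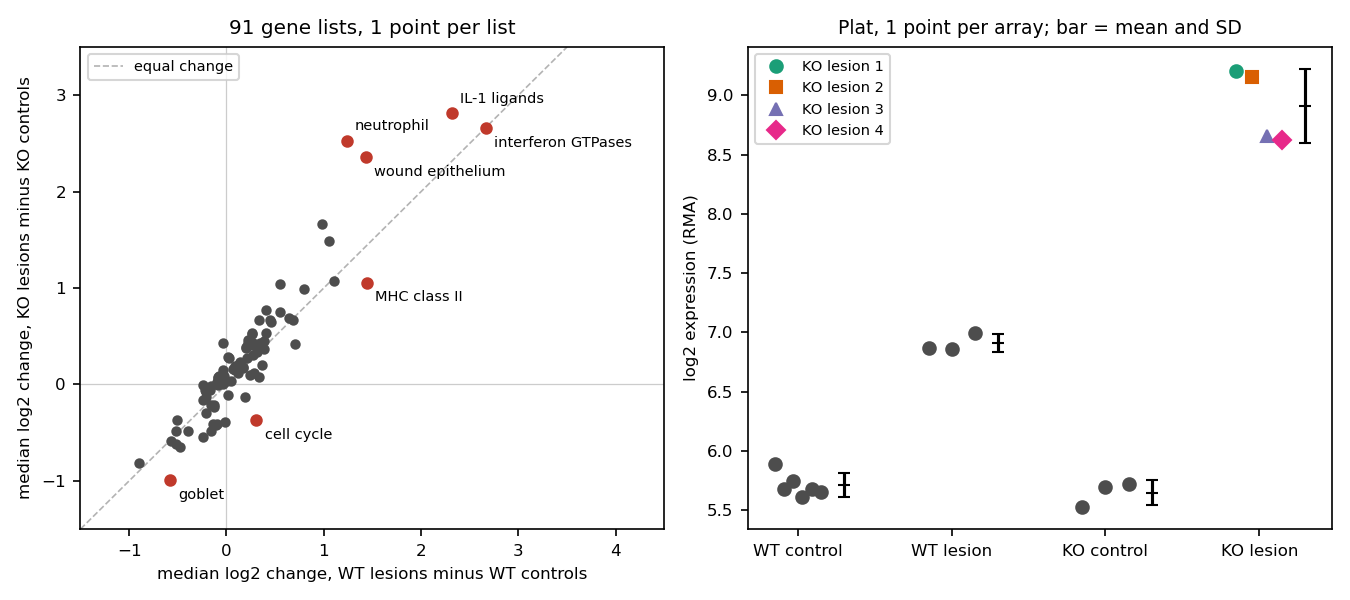
Left, median log2 change of each of 91 gene lists in WT (x axis) and in KO (y axis), with a dashed line where both are equal and 7 lists named. Right, log2 expression of Plat in all 16 arrays, 1 point per array, with the mean and SD of each group beside the points; KO lesions lie between 8.62 and 9.21 and WT lesions between 6.86 and 6.999.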

How the data were processed

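Expression was measured on Affymetrix arrays, and all 72688 rows of the deposited value table were read for 16 arrays. The deposited values are log2 expression made by the authors with RMA in Affymetrix Power Tools 1.16.1, per the submitters' processing notes. The genome build is not given in the sources used here. RMA corrects background, sets all arrays to 1 distribution and summarises probes, so a shift of most genes in 1 array would be removed. Rows were named through the platform's annotation. Of the 72688 rows 31219 have 1 gene symbol, 1531 have several and 39938 are not listed, and none of the last 2 kinds was named. For 841 rows the symbol was updated through RefSeq. The row with the highest mean was kept for each of 30746 genes (364 had several rows).

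limma 3.58.1 in R 4.3.3 was fitted to 4 group means over 16 arrays (lmFit, eBayes, two-sided, Benjamini-Hochberg over 30746 genes, called at an adjusted p under 0.05), and the script was tested on simulated data. Counts of 91 gene lists cover the 1772 of 1925 entries on the array. Members and lists were chosen with earlier results of these data known. The rule for named genes took Mcc, the 10 largest measured rises and falls, up to 3 called and 2 uncalled genes of a list, the 8 lowest p of each contrast and the 8 largest SD over the lesions. Other genes were chosen after their values were seen. Alternatives changed the arrays in the fit, the replicate block, the number series, the controls, single arrays, dim genes, the row per gene, centring, the variance model and the threshold. Promoter windows are RefSeq's (GRCm38.p6), found for 18205 of 30746 genes. The number of arrays limits the precision.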

Additional observations from a re-analysis of the deposited data

Results flagged for a closer look

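For each gene named, the lesion farthest from the other 3 was set against Dixon's limit for 4 samples, and 1 lesion stood apart in 24 genes, or 6.7% of those named. Chance alone marks about 1 gene in 20. It was lesion 1 in 8 genes, lesion 2 in 9, lesion 3 in 6 and lesion 4 in 1. The expression values below are log2 levels in the lesion that stood apart.

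Lesion 1 was the highest for Cd55 (11.08), Cldn4 (11.84), Egfr (10.47), Fos (10.77) and Prtn3 (6.03), a complement regulator, a sealing claudin, a growth factor receptor, an immediate early factor and a granule protease. It was the lowest for the mucosal chemokine Ccl28 (7.82), the immunoglobulin gene Igkv4-57 (3.96) and the lipopeptide receptor Tlr1 (7.35). Lesion 2 was the highest for Cyp2c68 (6.78), the tuft cell genes Dclk1 (6.38) and Gnat3 (6.14), the goblet cell lectin Zg16 (12.83), the nuclear receptor Ppara (6.51), the metal carrier Slc30a10 (6.63) and the sodium channel subunit Scnn1b (6.06). Its values for these 7 genes were on the side of the controls. Lesion 2 was also the highest for Mmp10 (11.81) and Timp3 (7.60), which rose. Lesion 3 was the lowest for Tnf (8.12), Irgm1 (8.79), Prdm1 (7.16) and the cystine importer Slc7a11 (8.14), all genes that rose, and the highest for Odc1 (10.41) and Pecam1 (6.90). Lesion 4 was the lowest for S100a1 (7.97).

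The response of Plat was larger in KO than in WT by 2.06 on the log2 scale, with an adjusted p of 0.000135 in limma. Among the 39938 probe sets that the annotation does not list, 2696 were called in KO lesions against KO controls (6.75%), 1032 of them higher and 1664 lower, and 641 changed by at least 2-fold. Their genes are not named here.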

How the results depend on the processing

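Against 6464 genes called (2755 higher, 3709 lower), 856 were called with a replicate block in the 7 KO arrays (683 higher, 173 lower), 2507 with the number series as a covariate (1383 and 1124), 3865 against WT controls of the lower series (1940 lower) and 4010 at an adjusted p under 0.01 (2109 lower). Of the 856, 853 were among the 6464. The labels do not say that equal numbers mark shared animals. Same-numbered arrays deviated with r of -0.145, -0.174 and -0.300, and differently numbered ones with r from -0.15 to 0.29. So few values, taken across genes, cannot settle whether the numbers pair the arrays. Leaving out each KO array gave 4461 (without control 1) to 6993 (without lesion 3) genes called, 2303 to 4143 of them lower. The KO minus WT difference was called for 1 to 510 genes, with 5 without lesion 1, 2 without lesion 2, 510 without lesion 3 and 2 without WT lesion 2. The WT arrays were left out after seeing the data. The 7 KO arrays alone, the series as a random block, all rows, genes above the median, mean rows, centring, an intensity trend and array weights kept the 3 KO counts within 1.5 times. No gene among the 6464 was called in the opposite direction with the block, the covariate or WT controls of the lower series. None of the 301 called genes that the text names turned its sign under any setting that re-estimated its change, and 159 of them passed with the block, 234 with the covariate and 257 against WT controls of the lower series. List medians of at least 0.2 in size (59 of 91) kept their sign under each setting that re-estimated them, but not their size. Of all 91 medians, 38 moved with the covariate and 37 against WT controls of the lower series, by at least the SD of the list's medians over the 4 lesions. The cell cycle median went from -0.371 to -0.006 against those WT controls, and that of mitochondrial ribosomal proteins from -0.388 to -0.072 with the covariate.

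Uncalled genes named above turned sign as follows. Against WT controls of the lower series the log2 changes were Apc (-0.26), Camp (-0.010), Cd163 (-0.14), Cd79a (0.022), Gstp1 (0.17), Ighv1-53 (-0.035), Igkv4-57 (0.23), Igkv4-59 (0.56), Igkv4-62 (0.45), Igkv4-63 (0.39), Mmp17 (-0.052), Ms4a1 (0.17), Msln (-0.061), Prtn3 (-0.038), Scnn1g (-0.016) and Trp63 (-0.022). With the series as a covariate they were Apc (-0.40), Camp (-0.095), Car1 (0.042), Cd163 (-0.12), Gstp1 (0.24), Igkv4-59 (0.26), Igkv4-62 (0.072), Jchain (0.12), Msln (-0.15), Retnlb (0.28), Scnn1g (-0.0073) and Trp63 (-0.024), as a random block Apc (-0.038), Camp (-0.0099) and Cd163 (-0.015), and with the replicate block Cd163 (-0.024) and Ighv1-53 (-0.024). Leaving out single KO arrays gave Apc (-0.036 to 0.10), Camp (-0.030 to 0.021), Cd163 (-0.024 to 0.026), Cd79a (-0.29 to 0.0053), Elane (-0.032 to 0.029), Hspa5 (-0.11 to 0.15), Ighv1-53 (-0.33 to 1.18), Igkv4-57 (-1.29 to 0.23), Igkv4-59 (-0.93 to 0.47), Igkv4-62 (-0.93 to 0.42), Igkv4-63 (-0.90 to 0.43), Jchain (-0.64 to 0.36), Mki67 (-0.55 to 0.018), Mpo (-0.048 to 0.0014), Msln (-0.0029 to 0.11), Nox1 (-0.11 to 0.55), Oas1a (-0.023 to 0.32), Prf1 (-0.0018 to 0.20), Retnlb (-0.85 to 0.31), Scnn1a (-0.26 to 0.11) and Vsig4 (-0.0036 to 0.094).

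Signal over background limits dim genes, whose changes are bounds. With 3 and 4 arrays, a series that follows diet, and no normal mucosa from sulindac-fed mice, the drug, the lesion and the series cannot be told apart.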

Other observations

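Several groups of genes that no comparison above describes are given here as values, with no explanation. Of 14 S100 genes on the array 7 rose in KO lesions and 1 fell. Besides the calprotectin pair these held S100a14 (1.67), S100a4 (at least 1.13) and S100a16 (0.93), calcium-binding proteins of epithelium and stroma, and the falling member was S100a1 (-0.52). Of 14 dendritic cell markers 9 [3, 3] rose, led by Itgax (1.16) and Irf8 (1.16), an integrin subunit and a transcription factor of the lineage. Of 11 keratins of simple epithelium and wounds 7 [5, 3] rose and 0 fell, and Krt7 (1.04), a duct-type keratin, rose most. Krt7 measured 8.17, 8.09 and 8.14 in the controls and 9.42, 9.08, 9.26 and 8.94 in lesions 1 to 4, so the groups did not overlap. Of 11 hyaluronan genes 4 [3, 2] rose, including Tnfaip6 (at least 1.93) and Cd44 (1.50), a hyaluronan-binding protein induced by TNF and the main hyaluronan receptor.

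Of 16 metallothioneins and zinc transporters 1 rose and 6 [3, 2] fell. The falls included Slc30a10 (-1.49) and Slc39a8 (-1.09), carriers that also move manganese, and the rise was Slc39a4 (0.52), the zinc importer of the gut surface. Slc30a10 measured 6.53, 6.31 and 7.84 in the controls and 5.08, 6.63, 4.79 and 5.10 in lesions 1 to 4, and lesion 2 overlapped the controls. Of 19 ABC transporters 5 [4, 3] rose and 2 fell, with the cholesterol exporters Abca1 (1.38) and Abcg1 (0.65) higher and the drug efflux pump Abcb1a (-0.78) lower. In the Hedgehog and Notch list of 22, 2 rose and 4 [4, 2] fell, with the receptor Notch2 (1.62) higher and the epithelial ligand Ihh (-0.80) lower besides Atoh1. Of 17 circadian clock genes 2 rose and 2 [5, 2] fell. Over all genes tested 8.96% were called higher and 12.1% lower. The clock count and the small counts that follow are therefore not read as results about their lists. Of 14 membrane and gastric-type mucins and trefoils 2 rose and 2 fell, with the membrane mucin Muc4 (1.05) higher. Of 13 carbonic anhydrases 2 rose and 1 fell, the latter Car2 (-1.12), a cytosolic enzyme of the surface epithelium. Of 14 enteric glia and neuron markers 2 rose and 1 fell, and of 25 translation factors 0 rose and 4 [1, 0] fell.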
